A study of Mus musculus with 4 samples.

Results

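GRO-seq reads that fit several places of the mouse genome about equally well were followed in stretches of the genome where the control cells had no well-placed read. The genome was divided into strand-specific windows of 10 kb on chromosomes 1 to 19, and a read belonged to the window that holds its 5′ end. A window was a member when neither siCTL library had a read with a deposited score of 10 or more in it and the 4 libraries together had at least 20 reads with a score of 1. The score was read as mapping quality, in which 1 marks a read with more than one equally good place, and such reads are called quality 1 reads here. Members were thus chosen by these measured reads of the same 4 libraries, and values that the choice fixes are descriptions. The rule found 11509 members among 405482 windows with a read, and among 29067 windows with at least 20 quality 1 reads. The other 17558 windows of that depth had well-placed siCTL reads. The name "silent" holds only for well-placed siCTL reads, because the siCTL libraries had 33567 and 35084 quality 1 reads in the members.

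The 4 libraries came from 3T3-L1, an established mouse preadipocyte cell line, and each is the only library of its group. One pair received control siRNA, named siCTL, and the other pair siRNA that targets the transcriptional cofactor GPS2, named siGPS2. Within each pair 1 library had no FCCP and 1 had 3 hours of FCCP, an uncoupler of mitochondrial respiration. Values for the 4 groups are given below in this order: siCTL, siCTL with FCCP, siGPS2, siGPS2 with FCCP. The knockdown and the markers of the cell line were not checked, because genes were not assigned to reads. No ratio has a replicate check. The intervals reflect counting error alone, and each compares single libraries rather than conditions.

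GRO-seq extends engaged polymerases in isolated nuclei and reads the RNA they make, so reads lie on the transcribed strand. Mammalian genomes hold families of near-identical sequence: dispersed transposable elements, tandem gene arrays and segmental duplications. A short read from such a family cannot be assigned to one copy, so an aligner places it at one of several equal matches, and reads in a window can come from another copy elsewhere.

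Of the 8 members with the most reads, 7 lay in 2 stretches in which reads recurred at a fixed spacing. On the minus strand of chromosome 8 (mm8, 126420001 to 126510000) reads clustered every 1697 bp.
The second lay on the plus strand of chromosome 2 (mm8, 83750001 to 83800000), where reads recurred at a spacing of 5809 bp. The GRCm38 annotation has 7 protein-coding genes of 2493 bp on the plus strand of chromosome 2, Gm13698 to Gm13691, exactly 5810 bp apart. Of these, 6 are identical and 1 differs by 1 base. The first 150 bases shared by the 6 are shown, as the sequence that repeats at that spacing.
Gm13691: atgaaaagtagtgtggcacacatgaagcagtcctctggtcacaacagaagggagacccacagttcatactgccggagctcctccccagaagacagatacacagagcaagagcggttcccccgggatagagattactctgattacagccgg
The annotated copies do not come with a mapping to mm8 here, so this is a match by chromosome, strand and spacing alone, and coordinates were not converted between builds.

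The libraries stood apart before any member was chosen. Each held 4199999 to 4200001 usable reads, but quality 1 reads made up 6.37% of siCTL, 6.63% of siCTL with FCCP, 30.3% of siGPS2 and 30.05% of siGPS2 with FCCP. On chromosomes 1 to 19 that is 246917, 256187, 1184122 and 1171351 quality 1 reads. By their read names, siCTL without FCCP was sequenced in run 183, and the remaining libraries in run 189. The effect of FCCP under siGPS2 and the siRNA comparison among FCCP libraries stay within run 189. The comparisons that use siCTL without FCCP do not. In cultured cells, fewer transcribing cells and fewer polymerases per cell cannot be told apart.

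Members were shallow windows that took most of their reads from the siGPS2 libraries. Over the 4 libraries a member had a median of 25 quality 1 reads (quartiles 22 and 33, highest 1100), and the 100 deepest members held 39593 of 411863 reads, 9.61%. By library the median was 1 read in siCTL, 1 in siCTL with FCCP, 12 in siGPS2 and 12 in siGPS2 with FCCP. The quartiles were 0 and 2 in both siCTL libraries, 9 and 16 in siGPS2, and 10 and 15 in siGPS2 with FCCP. No read was counted in 4591 members (39.9%) in siCTL and 4075 (35.4%) in siCTL with FCCP, against 1 member in siGPS2 and 0 in siGPS2 with FCCP. The minimum of 20 reads is met mostly by siGPS2 reads, so those medians follow in part from the rule.

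**Figure D1:**
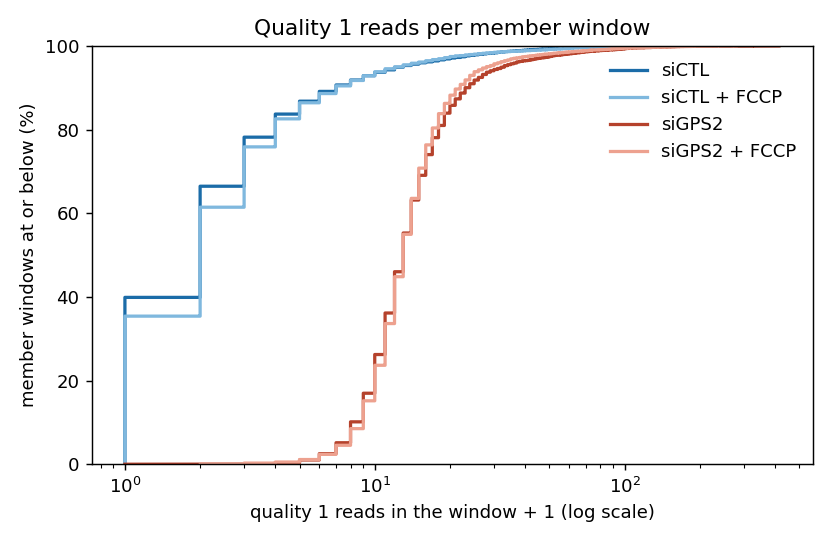
Cumulative share of the 11509 member windows (vertical axis, %) at or below a number of quality 1 reads (horizontal axis, reads + 1, log scale), 1 line per library. Both siCTL lines start at 35% to 40% of members without a read and have a median of 1, and both siGPS2 lines rise around a median of 12.

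Members were not a set apart at the threshold. Silent windows with 18, 19, 20 and 21 quality 1 reads numbered 1968, 1641, 1405 and 1189, a smooth decline across the minimum. Windows of the same depth with 1 or 2 well-placed siCTL reads numbered 3279 and 1404, and their medians were 1 read in each siCTL library and 12 or 13 in each siGPS2 library, as in the members. A member could have well-placed siGPS2 reads, which the rule did not use. Such reads were present in 22.9% of members in siGPS2 and 21.1% in siGPS2 with FCCP, against 8.94% and 9.10% of the silent windows under the minimum, and 7557 members (65.7%) had none in either library.

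Quality 1 reads in the members were higher in siGPS2 than in siCTL, as were all quality 1 reads. The members held 33567 reads in siCTL, 35084 in siCTL with FCCP, 174992 in siGPS2 and 168220 in siGPS2 with FCCP. The siGPS2 libraries had 5.21-fold more without FCCP (log2 2.38, 95% exact Clopper-Pearson interval 2.37 to 2.40) and 4.79-fold more with FCCP (2.26, 2.24 to 2.28). All quality 1 reads of chromosomes 1 to 19 were 4.796-fold and 4.57-fold higher, and the other windows with at least 20 of them 3.31-fold and 3.25-fold. Of each library's quality 1 reads the members held a similar share, 13.6%, 13.7%, 14.8% and 14.4% in the order given. Once libraries were scaled to their totals of quality 1 reads, the log2 ratio of the members' summed reads was 0.12 without FCCP and 0.069 with FCCP. The median log2 ratio of single members was then 0.91 and 0.87, against 0.80 and 0.75 over all windows with the same minimum.

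A window was called when its ratio, with 0.5 added to each count, reached 1.5-fold and its exact interval, drawn at an error of 0.001 over both sides, did not include equality. By this rule, in the absence of FCCP, siGPS2 was higher in 4692 members and lower in 3, beside 42.9% and 0.169% of all 29067 windows tested. With FCCP 4443 were higher and 3 lower, beside 39% and 0.0791%. The rule for members used the siCTL libraries, so nothing is read from these counts. At 2-fold with no interval the counts were 10488 and 46 without FCCP, beside 87% and 0.932%, and 10300 and 58 with FCCP, beside 85.5% and 1.04%. Scaling to totals of quality 1 reads turned the split to 5 higher and 413 lower without FCCP, beside 0.0482% and 6.55% of all windows, and to 1 higher and 423 lower with FCCP, beside 0.0241% and 6.19%. With a median of 1 siCTL read, few members can be called higher under that scaling. With reads of a library within 10 bp of each other counted once, 486 members were higher and 0 lower without FCCP, beside 4.21% and 0.0619%. With FCCP 364 were higher and 0 lower, beside 3.03% and 0.031%. The median log2 ratio was 3.17 and 3.06 over members, against 3.06 and 2.94 over all windows tested.

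Ratios by depth and by the number of adjoining members are descriptions, since the minimum of 20 reads used the same counts. Members of 20 to 39 reads had medians of 1, 1, 11 and 11, so that they reach the minimum mostly through siGPS2, and their high ratio follows in part from the rule. These members, 9607 in all, had 10.1-fold more reads in siGPS2 without FCCP and 8.88-fold more with FCCP. The 1501 members of 40 to 99 reads had 4.10-fold and 3.67-fold more, and the 401 members of 100 or more had 2.13-fold and 1.88-fold more. The 9472 members with no adjoining member on their strand had 6.70-fold and 6.64-fold more, and the 332 members in runs of 5 or more had 2.12-fold and 1.87-fold more. Members with more siCTL than siGPS2 reads numbered 246 (2.14%).

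**Figure D2:**
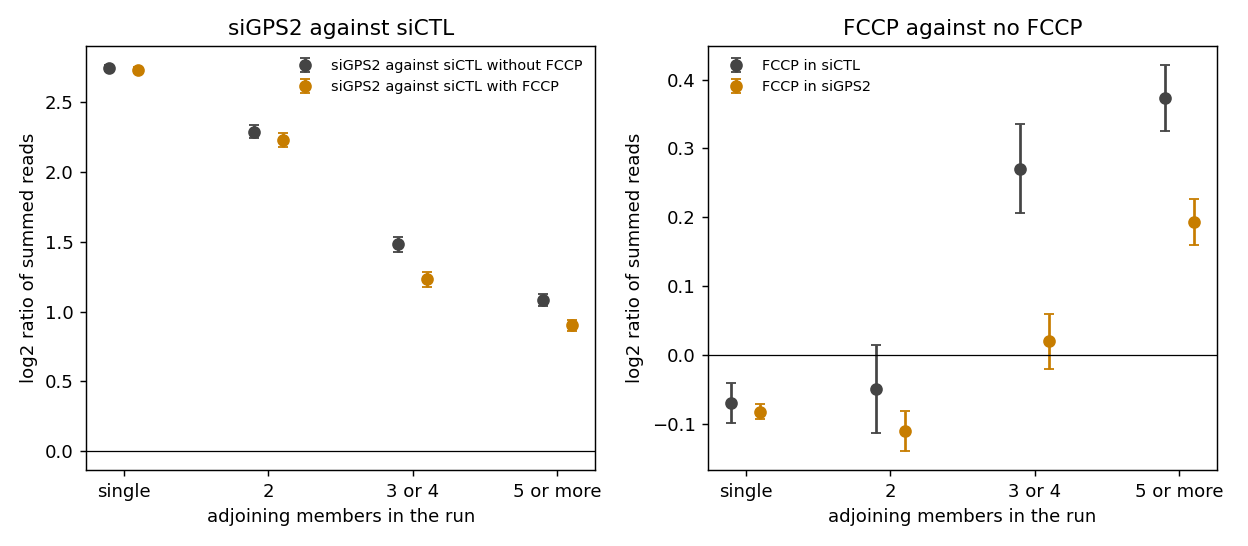
Log2 ratio of summed quality 1 reads (vertical axes) for members by the number of adjoining members on the strand (horizontal axes), siGPS2 against siCTL on the left and FCCP against no FCCP on the right. Bars are 95% exact intervals for counting error, each point compares 2 libraries; the siGPS2 ratio falls from 2.74 to 1.08 without FCCP, while the FCCP ratio in siCTL goes from -0.070 to 0.37. Without the 229 members of the chromosome 2 block, runs of 5 or more have 0.18 in siCTL and -0.010 in siGPS2.

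Single windows with the highest siGPS2 ratios were at or near 0 in siCTL. A plus-strand window on chromosome 18 had 0, 0, 46 and 34 reads. The plus-strand window of chromosome 7 at 45340001 had 0, 1, 38 and 27 reads. Against a floor of 3 reads in the library at 0, these are at least 15.3-fold and at least 12.7-fold higher without FCCP. With FCCP the highest was the minus-strand window of chromosome 15 at 102240001, with 1, 0, 42 and 41 reads, at least 13.7-fold higher. The rule and the ranking chose these windows for that pattern.

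The few members lower in siGPS2 had dense siCTL reads. A plus-strand window on chromosome 13 at 21840001 had 123, 84, 51 and 31 reads in the same order, and the minus-strand window at 21810001 had 134, 73, 60 and 29. Their siGPS2 reads were 0.415-fold and 0.448-fold those of siCTL without FCCP, and 0.369-fold and 0.397-fold with FCCP. In both windows FCCP libraries were lower under either siRNA, at 0.683-fold and 0.545-fold in siCTL and 0.608-fold and 0.483-fold in siGPS2. The minus-strand window of chromosome 2 at 36630001, with 31, 21, 7 and 10 reads, was the third member called lower without FCCP. The minus-strand window of chromosome 3 at 96470001 was called lower with FCCP, at 61, 56, 50 and 22 reads. These 4 windows are all the members called lower in either FCCP state.

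The members' total differed little between FCCP states, in opposite directions under the 2 siRNAs. Over all members the FCCP library had 1.05-fold the reads in siCTL (log2 0.064, 0.042 to 0.085) and 0.961-fold in siGPS2 (-0.057, -0.067 to -0.047). The difference in direction depends on the chromosome 2 block described below, on scaling and on how reads are counted. Without the block siCTL turned to -0.029 (-0.053 to -0.0052), scaled to quality 1 totals siCTL was 0.011 (-0.011 to 0.032), and with reads within 10 bp counted once siGPS2 was 4.98e-05 (-0.014 to 0.014). The other windows of the same depth had 0.886-fold and 0.871-fold. Called higher with FCCP were 10 members in siCTL and 5 in siGPS2, beside 0.114% and 0.0826% of all windows tested. Called lower were 12 and 33, beside 0.341% and 0.698%. These are 0.0869%, 0.0434%, 0.104% and 0.287% of the members, each below that of all windows tested. The interval needs depth, and a smaller share of members than of other windows was deep. Whether this accounts for the lower shares of calls was not tested. In siCTL 332 members had 20 or more reads, against 1150 of the 17558 other windows, and in siGPS2 1635 against 4184. At 2-fold with no interval, 2850 members (24.8%) were higher and 2227 (19.4%) lower in siCTL, beside 22.6% and 19.9%. In siGPS2 these were 465 (4.04%) and 521 (4.53%), beside 3.51% and 5.3%. Scaling to totals of quality 1 reads gave 4 higher and 14 lower in siCTL, beside 0.0791% and 0.42%, and medians of ratios 6 and 12, beside 0.0963% and 0.378%. With reads of a library within 10 bp of each other counted once, 1 member was higher and 0 lower in siCTL, beside 0.0344% and 0.0103%, and 1 and 0 in siGPS2, beside 0.0138% in each direction. Of the members called without this, 2 were higher and 3 lower under both siRNAs, and none was called in opposite directions. Of the 33 called lower in siGPS2, 26 also had fewer reads with FCCP in siCTL, and of the 12 called lower in siCTL all 12 had fewer in siGPS2.

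Several of the strongest single FCCP calls rested on few reads. The highest with FCCP in siCTL was the plus-strand window of chromosome 2 at 176600001, with 1 and 15 reads, against 23 and 24 in siGPS2. It lies in the chromosome 2 block described below. Next was the plus-strand window of chromosome 6 at 128850001, with 4 and 22 reads, against 11 and 12 in siGPS2. The lowest in siCTL was the plus-strand window of chromosome 4 at 45570001, with 11 and 0 reads, against 43 and 22 in siGPS2. Also lower in siCTL was the plus-strand window of chromosome 10 at 14210001, with 52 and 18 reads, against 158 and 105 in siGPS2. Its reads lay in 1 cluster of 494 bp that held 99.4% of them, and were lower with FCCP under both siRNAs. The plus-strand window of chromosome 7 at 105120001 was higher under both, with 18 and 48 reads in siCTL and 23 and 54 in siGPS2, or 2.67-fold and 2.35-fold. A minus-strand window of chromosome 9 at 22420001 went from 21 to 4 reads in siGPS2 and from 7 to 3 in siCTL. The minus-strand window of chromosome 16 at 39810001 had 1 read in siGPS2 and 19 with FCCP, with 0 in both siCTL libraries.

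Within the members, narrow and spread-out read patterns had FCCP ratios on opposite sides of 1. Reads of a window were chained at gaps of up to 100 bp into clusters. The 1469 members with at least 90% of their reads in 1 cluster held 5922, 4546, 25783 and 20526 reads, so the FCCP libraries had 0.768-fold in siCTL and 0.796-fold in siGPS2. The 2152 members with under 30% in their largest cluster held 12559, 15384, 35097 and 38556 reads, or 1.22-fold and 1.10-fold. The 7888 members between had 1.00-fold and 0.956-fold. The classes were cut on the same pooled reads, FCCP libraries included, so these ratios and their intervals are descriptions. As log2 values with counting intervals, the narrow class had -0.38 (-0.44 to -0.33) and the spread-out class 0.29 (0.26 to 0.33) in siCTL. In siGPS2 they had -0.33 (-0.36 to -0.30) and 0.14 (0.11 to 0.16). The chromosome 2 block described below holds 235 of the 2152 spread-out members. Without it the spread-out members had 0.18 (0.14 to 0.23) in siCTL and 0.082 (0.057 to 0.11) in siGPS2, and the narrow ones -0.38 and -0.33.

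Clusters were short. Reads of a member spanned a median of 6055 bp of its window (quartiles 3798 and 7997) in a median of 5 clusters. The largest cluster had a median of 14 reads, 51.7% of the member's reads, within 84 bp (quartiles 50 and 125). In 595 members (5.17%) all reads formed 1 cluster. Among members of at least 50 reads, the narrowest largest cluster, on the minus strand of chromosome 3 in the window at 60940001, took 18 bp. The widest, on the plus strand of chromosome 2 in the window at 83760001, took 3469 bp and lies in the tandem stretch shown above.

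The largest cluster mostly held reads of both siGPS2 libraries. It had reads of both siGPS2 libraries in 11273 members (97.9%) and at least 3 reads of each in 9536 (82.9%). It had reads of both siCTL libraries in 2012 (17.5%) and of neither in 6399 (55.6%). The largest cluster was chosen from the reads of all 4 libraries together, most of them siGPS2 reads, so these counts follow in part from that choice. Each library's own largest cluster was also taken, where both libraries of a pair had enough reads. The 2 then overlapped within 100 bp in 7775 of 11275 members in siGPS2 (69.0%) and 498 of 1169 in siCTL (42.6%). Over all members, 68.9% of siGPS2 reads had a siGPS2 with FCCP read within 10 bp, and 34.9% of siCTL reads had a siCTL with FCCP read that near. Within their own library the shares were 66.8% in siGPS2, 65.5% in siGPS2 with FCCP, 35.4% in siCTL and 27.7% in siCTL with FCCP. Only 17.0% of siGPS2 reads had a siCTL read within 10 bp. In the other direction, 41.7% of siCTL reads had a siGPS2 read that near. A share of this kind rises with the number of reads in the second library, so the pairs of libraries cannot be compared on it.

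The 2 FCCP states agreed in rank less over shallow members than over deep ones. As a description over windows, which share library, depth and the placement of repeat reads, Spearman's correlation between siCTL and siCTL with FCCP was 0.54 over 11509 members (Pearson's r 0.91). It was 0.39 between siGPS2 and siGPS2 with FCCP (r 0.89). Over the 1902 members of at least 40 reads the values were 0.87 and 0.68. Over the 9607 members of 20 to 39 reads the siGPS2 value was 0.076, where the narrow range of the sum limits it. Between siRNAs it was 0.14 without FCCP and 0.072 with FCCP over all members.

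**Figure D3:**
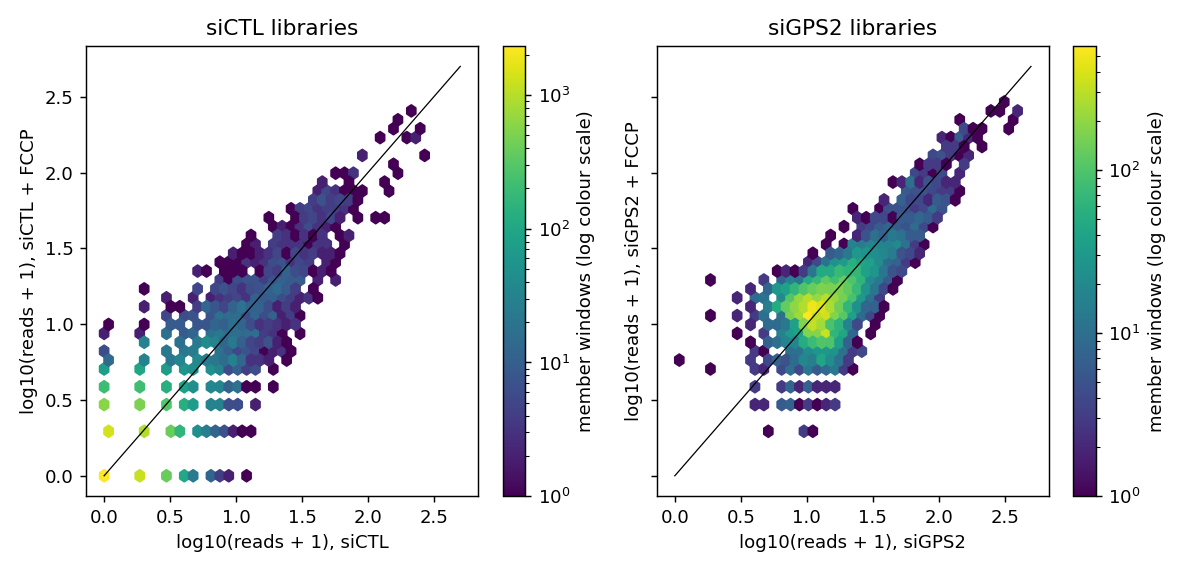
Quality 1 reads per member without FCCP (horizontal axes) and with FCCP (vertical axes), as log10 of reads + 1, for siCTL on the left and siGPS2 on the right; colour counts windows on a log scale and the line marks equal reads. Most siCTL members crowd at 0 to 2 reads, the siGPS2 members around 12, and in both panels the windows with most reads follow the line.

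Members were split about evenly between strands. The plus strand had 5676 members, 49.3% (95% exact interval 48.4 to 50.2), and the minus strand 5833. In 392 pairs of windows both strands were members, which are 784 members (6.81%), 246 of them in the chromosome 2 block described below. Outside it 538 of 11201 members (4.80%) had a member opposite. The opposite strand of a member had a median of 6 quality 1 reads (quartiles 2 and 13) and more than the member itself in 898 cases (7.80%). Well-placed siCTL reads were at 0 on the opposite strand in 7049 members (61.2%) and numbered 20 or more in 2186 (18.99%). Neither same-strand neighbour had a well-placed siCTL read in 6703 members (58.2%). Members were 2.84% of all windows with a read, from 2.17% on chromosome 3 to 3.86% on chromosome 2.

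The chromosome 8 stretch held fewer reads after FCCP and more in siGPS2. Its 9 windows contain 4 members; the other 5 have 23 well-placed siCTL reads among them. The 4 members had 876, 688, 1492 and 948 reads. FCCP libraries had 0.785-fold in siCTL (log2 -0.35, -0.49 to -0.20) and 0.635-fold in siGPS2 (-0.65, -0.77 to -0.54). The siGPS2 libraries had 1.70-fold and 1.38-fold, below the ratios of all quality 1 reads. The deepest member, at 126490001, had 232, 193, 417 and 258 reads. Members at 126430001, 126500001 and 126460001 kept the same order of libraries, siGPS2 highest and siCTL with FCCP lowest.

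The medians over the clusters of the 9 windows kept that order, and single clusters varied. The windows held 50 clusters, 24 of them in members, and 48 of 49 spacings were within 50 bp of 1697 bp. The central 90% of a cluster's 5′ ends covered a median of 70.5 bp. A cluster had a median of 34 reads in siCTL, 27.5 in siCTL with FCCP, 64 in siGPS2 and 39 in siGPS2 with FCCP. The FCCP library was lower in 38 of 50 clusters in siCTL and in 49 of 50 in siGPS2. siGPS2 was higher in 50 of 50 clusters without FCCP and in 45 of 50 with FCCP. The opposite strand of the 9 windows had 30 quality 1 reads.

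No pair of reads in a library shares start, end and strand, so a start position can hold few reads. Within these clusters the median share of start positions in use was 43.7%, 38.0%, 81.6% and 52.9% in the order of libraries given, and 93.1% at most in siGPS2. How far this limits the counts of siGPS2, and so its ratios, was not tested. Over all members, the largest cluster used a median of 9.78% of its positions in its fullest library, and at least 50% in 184 of 10802 clusters of 20 bp or more.

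**Figure D4:**
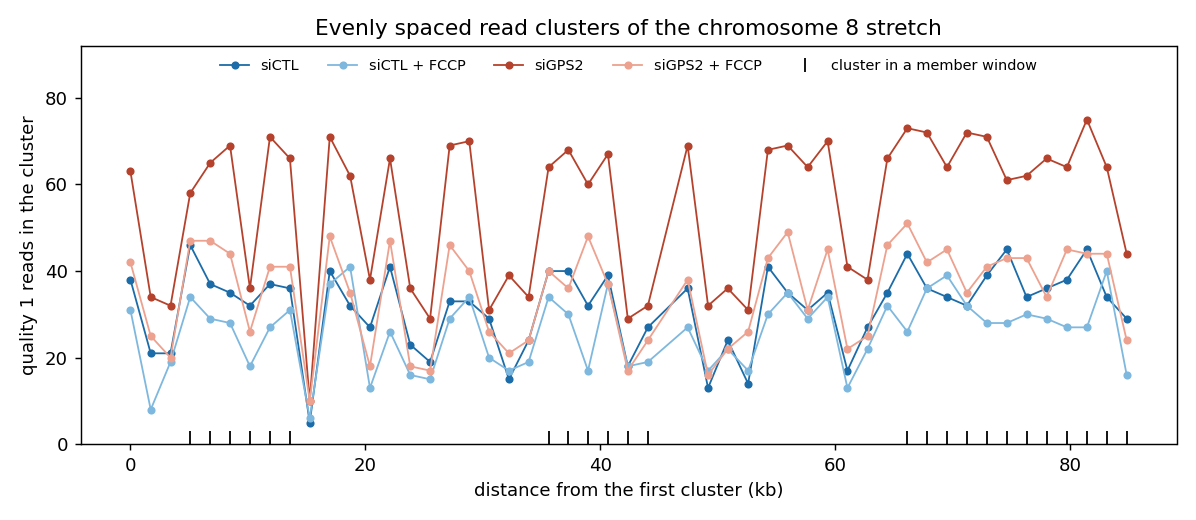
Quality 1 reads in each of the 50 clusters of the chromosome 8 stretch (vertical axis) by distance from the first cluster (horizontal axis, kb), 1 line per library; ticks on the axis mark the 24 clusters in member windows. siGPS2 has the highest median, 64 reads against 34, 27.5 and 39 in the others.

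The tandem stretch on chromosome 2 (83750001 to 83800000) is 5 adjoining members, and the siGPS2 libraries too had 0 well-placed reads there. It had 713 reads in siCTL, 904 in siCTL with FCCP, 1147 in siGPS2 and 1128 in siGPS2 with FCCP. FCCP gave 1.27-fold in siCTL (log2 0.34, 0.20 to 0.49) and 0.983-fold in siGPS2 (-0.024, -0.14 to 0.096). The siGPS2 ratio was 1.61-fold without FCCP and 1.25-fold with it. Reads lay in 26 clusters with a median span of 512 bp, and the opposite strand had 71. Elsewhere on the plus strand of chromosome 2, outside this stretch, the window at 80630001 had 264, 134, 199 and 144 reads, with 99.7% in 1 cluster of 1628 bp. siCTL was its highest library, and the FCCP libraries had 0.508-fold in siCTL and 0.724-fold in siGPS2.

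A block of adjoining members on chromosome 2 had more reads in the FCCP library under both siRNAs. Of 43 runs of at least 5 adjoining members, 29 lay on chromosome 2, and 27 of those lie between 174670001 and 177420000. The block was delimited after the runs were seen. It holds 308 members of 550 windows on both strands, 165 on the plus and 143 on the minus strand, and 246 of them have a member opposite. Reads were spread over a median of 23 clusters per member, and the largest held a median of 21.2%.

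Summed reads in the block were 5417, 7498, 12632 and 15099. FCCP libraries were 1.38-fold higher in siCTL (log2 0.47, 0.42 to 0.52) and 1.20-fold in siGPS2 (0.26, 0.22 to 0.29). Reads were higher in 237 of 308 members under each siRNA, and lower in 55 in siCTL and 60 in siGPS2. Of the 11201 members outside the block, 3982 were higher and 3433 lower in siCTL, where their median was 1 read. In siGPS2 these were 4850 and 5426. Few members of the block passed the call rule alone, with 4 higher and 0 lower in siCTL, beside 0.114% and 0.341% of all windows tested. The siGPS2 counts were 2 and 1, beside 0.0826% and 0.698%. Both strands gave like values, 1.38-fold and 1.39-fold in siCTL and 1.19-fold and 1.20-fold in siGPS2. Windows and strands share the same libraries, and a quality 1 read may come from another copy, so they are not separate observations. The 11201 members outside the block had 0.980-fold and 0.943-fold, so that without the block FCCP in siCTL turns to a log2 ratio of -0.029. siGPS2 against siCTL in the block was 2.33-fold without FCCP and 2.01-fold with FCCP, below that of all quality 1 reads.

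Well-placed reads of the block were also more numerous in the FCCP libraries. The siCTL ones lie by rule in windows that are not members. They numbered 742 in siCTL, 998 in siCTL with FCCP, 705 in siGPS2 and 1009 in siGPS2 with FCCP, a ratio of 1.35-fold (log2 0.43, 0.29 to 0.57) and 1.43-fold (0.52, 0.38 to 0.66). Between siRNAs their log2 ratios were -0.074 (-0.22 to 0.077) without FCCP and 0.016 (-0.11 to 0.14) with FCCP, where quality 1 reads of the block's members were 2.33-fold and 2.01-fold. Over whole libraries, well-placed reads were fewer in siGPS2. They made up 81.9%, 82.3%, 54.7% and 55.1% of all reads in the order of libraries given, so near-equal counts in the block stand beside a library-wide fall.

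Long runs differed among themselves. The longest, 17 members on the plus strand at 175290001 to 175460000 of chromosome 2, had 246, 316, 673 and 713 reads, and the next, 16 members at 176480001 to 176640000, had 364, 482, 656 and 814. A run of 15 members on the plus strand of chromosome 12 (56010001 to 56160000) had 563, 747, 873 and 978. The fourth, 11 members on the plus strand of chromosome 2 at 175500001 to 175610000, had 261, 347, 624 and 786. In all 4 the FCCP library had more reads under each siRNA. For the longest run in siGPS2 the log2 ratio was 0.083 (-0.071 to 0.24), which includes no change. In the block 27 of 27 runs were higher with FCCP in siCTL and 26 of 27 in siGPS2. Runs too share libraries and possibly copies, so these counts are descriptions. Outside it the 103 members in runs of 5 or more had log2 ratios of 0.18 (0.10 to 0.27) in siCTL and -0.010 (-0.077 to 0.057) in siGPS2, and 7 of 16 runs were higher in siCTL and 6 of 16 in siGPS2, 4 in both.

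**Figure D5:**
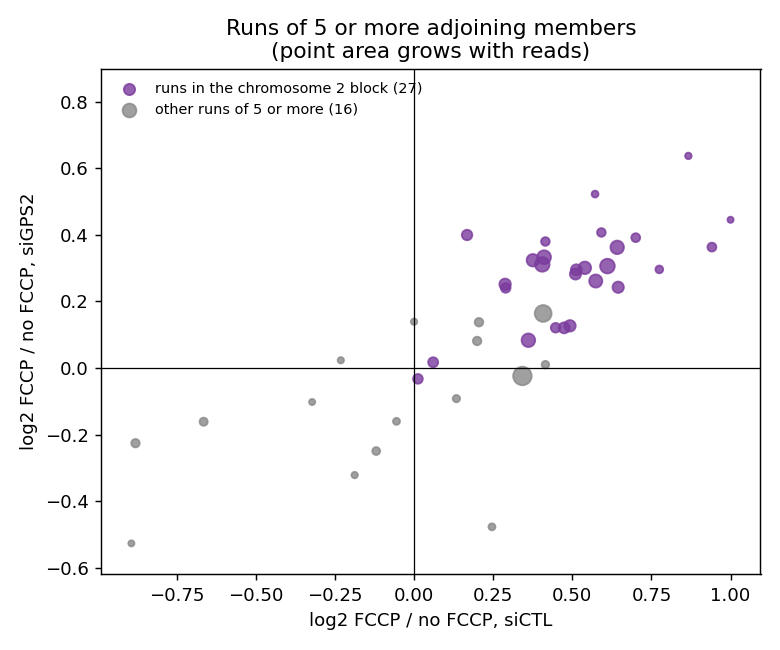
Log2 ratio of FCCP against no FCCP in siCTL (horizontal axis) and in siGPS2 (vertical axis) for the 43 runs of at least 5 adjoining members; point area grows with reads, purple marks the 27 runs of the chromosome 2 block. 26 of the 27 runs in the block are above 0 on both axes, against 4 of the other 16.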

How the data were processed

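GRO-seq libraries of 3T3-L1 cells were analysed from deposited lists of aligned reads, each with its position, strand and a score. Per the submitters' processing notes, Bowtie, HOMER and mm8 were used. Their settings were not given in the sources used here. Scores that the authors deposited (0 to 42) were read as mapping quality. Equal totals and the lack of repeated positions were taken to mean that the authors had removed duplicates and thinned the reads; original depths are unknown. 3 libraries each lost 1 line with empty fields. Reads were counted as deposited, by 5′ end, with Python 3.11.15, numpy 2.4.6, pandas 2.3.3 and scipy 1.17.1. Ratios carry exact Clopper-Pearson intervals. The call rule was tested on simulated data.

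Windows are named by a rule: the 8 deepest, the 4 deepest in siCTL, the 3 highest and 3 lowest called per comparison, the 4 longest runs, and the 2 narrowest and 2 widest clusters; some are not printed. Other windows and stretches were picked after their values were seen. Members, lists and rules were chosen with earlier results of these data known. Gene lists, Gps2 and cell type markers were not analysed here, as genes were not assigned. Alternatives covered scaling, read chains (reads of a library within 10 bp counted once), score limits, minimum, window, grid, cluster gap and windows chosen on other libraries. The annotation of the chromosome 8 stretch is not reported here.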

Additional observations from a re-analysis of the deposited data

Results flagged for a closer look

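Among the totals, stretches, 4 longest runs and single windows named for FCCP, the ratios given here had opposite signs under the 2 siRNAs, and the difference was not tested, since each group has 1 library. Over all members the log2 ratio was 0.064 in siCTL and -0.057 in siGPS2, a difference of -0.12. Plus-strand members had 0.099 and -0.036, a difference of -0.14, and minus-strand members 0.026 (-0.0055 to 0.057, which includes no change) and -0.077, a difference of -0.10. Members with 30% to 90% of reads in the largest cluster had 0.0065 (-0.026 to 0.039) and -0.064, a difference of -0.071, and members in runs of 5 or more outside the chromosome 2 block 0.18 and -0.010 (-0.077 to 0.057), a difference of -0.19. The tandem stretch on chromosome 2 at 83750001 had 0.34 and -0.024 (-0.14 to 0.096), a difference of -0.37. The minus-strand window of chromosome 5 at 89240001 had 4 and 21 reads in siCTL and 10 and 9 in siGPS2, log2 ratios of 2.39 and -0.15 and a difference of -2.54; the siGPS2 interval, -1.63 to 1.30, includes no change. The siCTL library without FCCP is on another sequencing run than the other 3, and its part in these differences was not tested.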

How the results depend on the processing

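Ratios over the members are given as log2. FCCP in siCTL (0.064) was 0.011 scaled to quality 1 totals, with an interval of -0.011 to 0.032. It stayed above 0 at 0.040 scaled by medians of ratios, 0.20 with read chains counted once and 0.026 with scores 0 and 1 together. It reversed to -0.029 without the chromosome 2 block. In windows chosen on the other siRNA it was 0.14. Those are 34223 windows and not the members, chosen by silence and a lower minimum of reads in the libraries of the other siRNA. FCCP in siGPS2 (-0.057) was -0.041 scaled to quality 1 totals, -0.085 without the block and 4.98e-05 with chains counted once. In the 1540 windows chosen on the other siRNA in the same way it was -0.17. siGPS2 against siCTL without FCCP (2.38) was 0.12 scaled to quality 1 totals, 2.76 by medians of ratios, 1.82 with chains counted once, 2.25 with scores 0 and 1 and 2.53 without the block; with FCCP (2.26) these were 0.069, 2.65, 1.62, 2.17 and 2.47. The cause was not tested. Members called numbered 22 and 38 for FCCP in siCTL and siGPS2, 5077 and 986 at 2-fold with no interval, and 1 and 1 with chains. For siGPS2 against siCTL they were 4695 and 4446, of which 4692 and 4443 were higher, and 10534 and 10358 at 2-fold. Scaled to quality 1 totals they were 418 and 424, and the direction turned, with 413 and 423 lower. With chains they were 486 and 364, all higher. At 40 reads they were 1121 and 952, and no share over all windows was computed for these. The other counts join both directions, and the shares over all windows tested are given by direction above. Members numbered 7557 with silence in all 4 libraries and 1902 at 40 reads. The median span of 84 bp was 64 and 162 bp at gaps of 50 and 500 bp, and the plus-strand share 50.6% at 40 reads. Spearman's correlation was 0.50 (siCTL) and 0.60 (siGPS2) with chains, and 0.87 and 0.68 at 40 reads. Reads near one of the other FCCP state were 8.04% and 22.8% at the same position, and 59.6% and 88.4% within 100 bp. The alternatives without the block, also for cluster and run classes, and without the siCTL library of the other run, were chosen after seeing the data. No paired analysis was possible because each group has 1 library and the labels carry no replicate numbers. Depth limits single windows: at a median of 1 siCTL read, no FCCP ratio of a typical member can be read.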
